A study of Mus musculus with 7 samples.

Results

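The cholesterol transport and efflux genes examined here are 9 of the 32285 genes counted in the deposited tables: Apoe, Abca1, Abcg1, Abcg4, Nr1h2, Nr1h3, Cyp46a1, Soat1 and Npc2. They were taken by symbol, by a rule that uses no measured value, and serve as a counterpart to the 21 genes of cholesterol synthesis. The study sequenced single cells of the ventricular-subventricular zone (V-SVZ), the stem cell niche in the lateral wall of the lateral ventricle, from mice aged 31 to 33 days. There were 3 control libraries (genotype labelled Prdmflox/flox), 3 cKO libraries (hGFAP-Cre+/-; Prdm16flox/flox) and 1 DKO library (hGFAP-Cre+/-; Prdm16flox/flox; Vcam1flox/flox), each pooling tissue of 2 to 3 mice of both sexes. All groups carry floxed Prdm16, a transcriptional regulator of neural stem cells, and the labels give Cre only to cKO and DKO. Cre is driven by a human GFAP promoter, so deletion is expected only in radial glia and the cells derived from them, and a contrast between cKO and control is also one between mice with and without Cre.

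Each library is a table of raw counts of unique molecular identifiers (UMIs), the tags that count each captured transcript once, with totals between 45758003 and 141353017 UMIs. The limits of 500 to 7000 detected genes and at most 10% mitochondrial counts kept 43346 of 65049 barcodes, 1868 (cKO library 2) to 9502 (control library 3) per library. Pairs of libraries shared 2 to 70 barcodes, at most 1.48% of the smaller one. Prdm16 itself stood at 63.9 to 76.8 CPM (UMIs of a gene scaled to a common total over all UMIs of that cell type in that library) in NSC-like cells of the control group, 46.2 to 57.0 CPM in cKO and 58.2 CPM in the DKO library, and in astrocyte-like cells at 45.5 to 52.3 CPM in control, 44.8 to 59.4 CPM in cKO and 44.4 CPM in the DKO library, so that it was lower in cKO in the former and not in the latter. Counts at the 3′ end do not show whether the floxed exons are absent. Vcam1 in astrocyte-like cells was at 309 to 393 CPM in control, 349 to 377 CPM in cKO and 178 CPM in the DKO library. In NSC-like cells it was at 103 to 155 CPM in control, 149 to 179 CPM in cKO and 87.6 CPM in the DKO library. In ependymal-like cells Prdm16 was lower in cKO without overlap (20.3 to 27.6 CPM in control, 11.3 to 16.2 CPM in cKO, 13.8 CPM in the DKO library) and Vcam1 higher (16.7 to 21.3, 28.1 to 38.6 and 12.2 CPM).

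Cholesterol hardly crosses the blood-brain barrier, so the brain makes its own, and glia are thought to supply much of it to neurons. In this traffic, glial cells load cholesterol onto apolipoprotein E through ABC transporters, cells take up the particles by receptors, lysosomal proteins release the cholesterol, and surplus is stored as esters or hydroxylated so that it can leave the brain. Oxysterols, made when cholesterol is plentiful, activate the liver X receptors (LXRs), which raise the transcription of the efflux genes, while the SREBP pathway drives synthesis when cholesterol is scarce.

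Cells were clustered without the 85 cholesterol genes listed for this work, so that the members did not shape the cell types, and 11 types holding 38302 cells were compared. These were NSC-like (5050 cells), TAP-like (transit amplifying precursors, 5470), neuroblast-like (8282), astrocyte-like (2467), ependymal-like (2776), OPC-like (oligodendrocyte precursors, 1567), oligodendrocyte-like (5255), neuron-like (2124), microglia-like (1074), endothelial-like (2771) and mural-like cells. The NSC-like cluster carried Gfap, Thbs4, Hes5, Fabp7 and Lypd6, and also 6 of 7 astrocyte markers at raised levels. By a gate on markers 3084 of its 5050 cells were astrocyte-like and 1592 NSC-like, so the label rests on the cluster and not on each cell. The mural-like cells join clusters of 1128 and 338 cells, of which the smaller also had 6 endothelial markers. Fibroblast-like cells, 80.1% of them from control library 2, erythroid-like cells, with 6 in cKO library 2, and 3682 unnamed cells were not compared. Orders of cell types given below are among the 11 compared types unless another clustering is named. By the marker gate the OPC-like cluster held 803 OPC-like, 332 committed OPC-like and 231 oligodendrocyte-like cells of 1567, so that its levels are those of a mixture. The TAP-like cluster held 2061 TAP-like, 1764 neuroblast-like and 1310 unnamed cells of 5470 by the same gate, so that its levels are mixed too. In these summed counts, fewer cells with a transcript and less RNA per cell cannot be told apart.

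Regulators such as these can bind close to a gene's start, and 250 bases upstream of the transcript start were taken from RefSeq (GRCm38.p6) for 7 of the 9 members; Abcg1 and Abcg4 had no entry. They are shown for the members that held a motif searched for at their first listed start, with the motif in capitals. The CCAAT box, letters CCAAT, lay at 3 of the 10 listed starts of these members and 15 of 19 starts of synthesis genes, against 33.8% of all 32851 starts. The E-box CACGTG, read by basic helix-loop-helix factors, lay at 1 member start (Abca1), 3 synthesis starts and 6.02% of all starts. TATAAA lay at 2 member starts (Abca1, and an alternative start of Apoe), 0 synthesis starts and 12.4% of all starts. The nuclear receptor motif AGGTCA lay at 0 member starts, 4 synthesis starts and 14.0% of all starts, its direct repeat with 4 bases between (the form LXRs bind) at 0 starts of either list and 0.0152% of all starts, and the sterol regulatory motif TCACNCCAC at 0 member starts, 1 synthesis start and 1.05% of all starts. Both strands were searched, and the motifs do not overlap except for the single and the repeated AGGTCA. A match describes these letters and not a bound site. Only the exact letters were searched, so a start without a match can still hold a variant of a motif. The Abca1 sequence holds the letters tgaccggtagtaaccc, a variant of the direct repeat read on the other strand, which are left unmarked. Variants were not counted, and binding of LXRs to these letters was not tested. The direct repeat matched only 5 of all 32851 starts, so its absence from both lists says little.
Abca1 (chr4:53159896-53160145, minus strand): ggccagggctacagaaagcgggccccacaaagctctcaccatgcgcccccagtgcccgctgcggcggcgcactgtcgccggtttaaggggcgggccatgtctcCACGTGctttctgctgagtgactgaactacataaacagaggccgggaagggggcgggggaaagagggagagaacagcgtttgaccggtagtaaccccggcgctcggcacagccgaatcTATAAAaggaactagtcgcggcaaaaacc
Soat1 (chr1:156474329-156474578, minus strand): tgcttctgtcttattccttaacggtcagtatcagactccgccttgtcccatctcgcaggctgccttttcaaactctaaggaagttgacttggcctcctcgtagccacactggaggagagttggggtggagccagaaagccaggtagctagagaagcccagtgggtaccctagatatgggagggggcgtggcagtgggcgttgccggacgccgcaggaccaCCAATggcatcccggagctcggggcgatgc
Npc2 (chr12:84773113-84773362, minus strand): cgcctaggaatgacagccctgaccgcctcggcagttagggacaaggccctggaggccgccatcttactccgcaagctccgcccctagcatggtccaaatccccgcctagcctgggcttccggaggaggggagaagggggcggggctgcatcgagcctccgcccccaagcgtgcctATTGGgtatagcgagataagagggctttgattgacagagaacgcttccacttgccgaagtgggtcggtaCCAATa
Cyp46a1 (chr12:108334066-108334315, plus strand): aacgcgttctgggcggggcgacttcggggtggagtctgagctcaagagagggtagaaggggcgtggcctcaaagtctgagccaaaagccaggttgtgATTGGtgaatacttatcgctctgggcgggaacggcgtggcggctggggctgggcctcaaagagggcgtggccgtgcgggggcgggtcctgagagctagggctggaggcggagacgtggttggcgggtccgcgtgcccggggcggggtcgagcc

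Among the 11 compared cell types, Apoe was highest in astrocyte-like and NSC-like cells. Apoe (ENSMUSG00000002985, chr7:19696109-19699188, minus strand), the main lipid-carrying protein of the brain, was highest in astrocyte-like cells, at 24466, 27466 and 24875 CPM in control libraries 1, 2 and 3, 31516, 21732 and 27593 CPM in cKO libraries 1, 2 and 3 and 21908 CPM in the DKO library. NSC-like cells followed at 18099.9 ± 641 CPM (SD, n = 3 control libraries), below the astrocyte-like cells in every control library. NSC-like cells were 8.96 to 13.6% of control cells and held 38.6 to 44.6% of all Apoe UMIs, and astrocyte-like cells were 5.09 to 5.79% of cells and held 25.1 to 34.9%. Microglia-like (8147 ± 2266 CPM) and ependymal-like cells (7389.9 ± 212 CPM) came next and overlapped, then endothelial-like cells at 2214 ± 252 CPM, while OPC-like (1555 CPM) and mural-like cells (1449 CPM) overlapped. The place of OPC-like cells turns with the clustering: at resolution 0.3 they had 3247 ± 646 CPM of Apoe, above the endothelial-like cells of the order given here. TAP-, oligodendrocyte-, neuron- and neuroblast-like cells, at 335 to 701 CPM, overlapped from neighbour to neighbour.

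Free RNA of an abundant transcript is counted in cells that do not express it, so Apoe in other cell types was set beside 7 astrocyte markers, each as a share of its astrocyte-like level in the same library. In neuron-like cells Apoe was at 0.676 to 2.60% and the median marker at 0.398 to 2.57% over the 7 libraries, so the ranges nearly coincided. In neuroblast-like cells the ranges were 0.979 to 1.90% and 0.573 to 1.23%, and in oligodendrocyte-like cells 1.41 to 2.54% and 0.799 to 1.63%. Within a library Apoe exceeded the marker median in 7 of 7 libraries in neuroblast- and oligodendrocyte-like cells and in 6 of 7 in neuron-like cells, with ratios of Apoe to the marker median of 0.942 to 2.14 over these types. How much of this low Apoe is free RNA was not tested. Microglia-like cells differed, with Apoe at 22.4 to 37.2% and the markers at 1.02 to 2.29%, and so did ependymal-like cells, at 21.6 to 30.6% and 6.39 to 10.2%. Here Apoe exceeded the marker median by 9.77 to 26.7 times in microglia-like and 2.22 to 4.596 times in ependymal-like cells, and exceeded each of the 7 markers in 7 of 7 libraries in microglia-like and in 0 of 7 in ependymal-like cells. The highest marker in ependymal-like cells stood at 64.9 to 150% of its astrocyte-like level, so the count of 0 says little about free RNA there. In OPC-like cells Apoe exceeded each marker in 7 of 7 libraries and their median by 2.42 to 4.32 times.

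**Figure D1:**
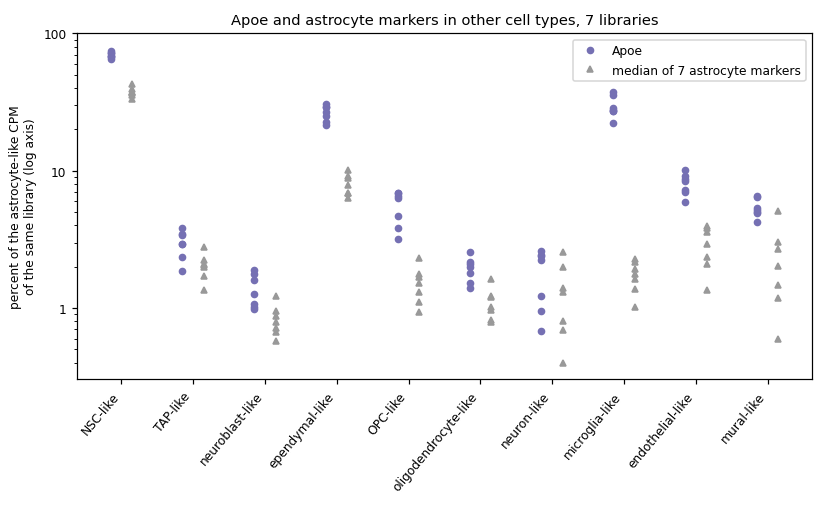
Apoe (circles) and the median of 7 astrocyte markers (triangles) in 10 cell types, each as a percent of the CPM in astrocyte-like cells of the same library, on a log axis, with 1 point per library (7). Apoe lies far above the markers in microglia-like cells (22.4 to 37.2% against 1.02 to 2.29%) and among them in neuron-like cells (0.676 to 2.60% against 0.398 to 2.57%).

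Much of the microglia-like Apoe came from few cells. At a finer clustering (resolution 0.3), 69 of the 1074 microglia-like cells (6.42%) separated as macrophage-like, by markers such as Mrc1, Pf4 and Lyve1, and these held 24170 of 41529 Apoe UMIs (58.2%, 45.7 to 69.1% across libraries). In the 3 libraries with at least 10 such cells, Apoe stood at 47811 to 78900.2 CPM and Abca1 at 589 to 836 CPM. Without them the microglia-like cells had 3351 CPM of Apoe and 168 CPM of Abca1 over all libraries. There were 6 to 14 macrophage-like cells per library, so these are descriptions of few cells. The summed macrophage markers in microglia-like cells were 244 to 588 CPM in control, 336 to 637 CPM in cKO and 851 CPM in the DKO library.

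The ABC transporters differed in their order of cell types. Abca1 (ENSMUSG00000015243, chr4:53030787-53159895, minus strand), which exports cholesterol to lipid-poor apolipoproteins, had its highest mean of the compared types in NSC-like cells, where control libraries 1, 2 and 3 measured 203, 176 and 204 CPM, the cKO libraries 216, 182 and 154 CPM and the DKO library 178 CPM. Microglia-like (194 ± 18.8 CPM) and astrocyte-like cells (181 ± 27.2 CPM, SD, n = 3 control libraries each) overlapped with them. Ependymal-like (129 CPM) and endothelial-like cells (110.1 CPM) were lower without overlap. OPC-like and mural-like cells came next at 56.5 and 49.9 CPM, then neuroblast-like and TAP-like cells at 41.5 and 36.1 CPM, oligodendrocyte-like cells at 17.5 CPM and neuron-like cells at 8.97 CPM. At resolution 0.3 OPC-like cells had 104 CPM. Which of the leading types is highest depends on how cells are assigned: by a marker gate in place of clusters astrocyte-like cells led with 186 CPM.

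Abcg1 (ENSMUSG00000024030, chr17:31057675-31117988, plus strand), which passes cholesterol on to lipidated particles, was nearly absent from the 2 compared cell types richest in Apoe. In oligodendrocyte-like cells control libraries 1, 2 and 3 measured 91.2, 107 and 85.9 CPM, the cKO libraries 95.1, 132 and 105 CPM and the DKO library 92.3 CPM, and those cells held 61.2 to 72.8% of its UMIs in control. Microglia-like (60.2 CPM), OPC-like (52.0 CPM) and neuron-like cells (49.0 CPM) overlapped below them. This order of OPC-like and oligodendrocyte-like cells reversed under other assignments of cells, with 115 against 95.6 CPM at resolution 0.3 and 119 against 88.8 CPM by the marker gate. Endothelial-like cells had 30.9 CPM, mural-like and ependymal-like cells 22.2 and 20.6 CPM. The macrophage-like cells, richer still in Apoe, had 45.3 to 108 CPM of Abcg1 in the 3 libraries with at least 10 of them, from 34 UMIs over all libraries. NSC-like cells reached 4.35 ± 1.26 CPM, TAP-like cells 1.56 CPM and astrocyte-like cells 1.05 ± 0.810 CPM (SD, n = 3), the last from 35 UMIs in all 7 libraries. With each cell thinned to 1000 UMIs, 9.79 to 11.2% of oligodendrocyte-like cells had an Abcg1 UMI in control, against 0 to 0.224% of astrocyte-like cells. Unthinned, the shares were 51.3 to 83.0% and 0.415 to 1.64%, at library medians of 12227.5 to 23042.5 and 5523 to 9820.0 UMIs per cell.

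Abcg4 (ENSMUSG00000032131, chr9:44273188-44288615, minus strand), a close relative of Abcg1 known from neural tissue, was sparse and had another order. It was highest in neuron-like cells, at 11.9, 19.4 and 11.3 CPM in control libraries 1, 2 and 3, 12.7, 14.7 and 16.8 CPM in cKO and 9.83 CPM in the DKO library. Astrocyte-like (10.96 CPM), NSC-like (7.37 CPM) and OPC-like cells (7.17 CPM) overlapped from neighbour to neighbour. Neuroblast-, TAP- and oligodendrocyte-like cells had 2.20 to 3.00 CPM, and ependymal-like cells 1.15 CPM. In mural-, endothelial- and microglia-like cells there were 9, 8 and 3 UMIs over all libraries.

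The LXR genes differed in breadth. Nr1h2 (ENSMUSG00000060601, chr7:44549616-44553951, minus strand), encoding LXR beta, was found in every type, from 19.7 ± 6.15 CPM in neuron-like to 76.3 ± 19.9 CPM in mural-like cells (SD, n = 3 control libraries each), and each neighbouring pair in this order overlapped. In mural-like cells it stood at 87.8, 87.8 and 53.3 CPM in control libraries 1, 2 and 3, 66.9, 56.6 and 46.7 CPM in cKO and 57.2 CPM in the DKO library. Control library 3 was the lowest of the control libraries in 11 of 11 types and cKO library 3 the lowest of the cKO libraries in 9 of 11. Both were counted by Cell Ranger version 6.1.1 and the other 4 by version 6.0.1, and the part of the version in these levels was not tested.

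Nr1h3 (ENSMUSG00000002108, chr2:91184061-91202834, minus strand), encoding LXR alpha, was restricted. Mural-like cells had 70.5, 73.3 and 45.3 CPM in control libraries 1, 2 and 3, 77.3, 62.1 and 56.3 CPM in cKO and 90.5 CPM in the DKO library, and held 25.5 to 33.9% of its control UMIs while making up 2.82 to 3.22% of control cells. The larger mural-like cluster had 79.8 ± 20.7 CPM and the smaller, with endothelial markers, 43.1 ± 10.6 CPM, whereas Abca1 was at 23.4 ± 3.39 and 81.8 ± 3.72 CPM. NSC-like cells came second at 16.2 ± 3.63 CPM, without overlap. Astrocyte-, endothelial- and ependymal-like cells had 8.15, 7.96 and 6.13 CPM and overlapped. The other 6 types had 0.342 to 2.01 CPM, in microglia-like cells from 5 UMIs over all libraries.

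Of the enzymes that dispose of surplus cholesterol, the hydroxylase was highest in neuron-like cells and the esterifying enzyme in astrocyte-like cells. Cyp46a1 (ENSMUSG00000021259, chr12:108334381-108362234, plus strand), which makes the oxysterol that leaves the brain, stood at 106, 131 and 86.2 CPM in the neuron-like cells of control libraries 1, 2 and 3, 86.6, 109 and 105 CPM in cKO and 74.7 CPM in the DKO library. Astrocyte-like (32.4 ± 6.21 CPM), NSC-like (21.5 CPM) and OPC-like cells (19.0 CPM) overlapped from neighbour to neighbour. Oligodendrocyte-, ependymal-, microglia- and endothelial-like cells had 5.48 to 10.1 CPM, and neuroblast-, TAP- and mural-like cells 1.71 to 2.35 CPM. Neuroblast-like cells thus had little of it, and no descent of the neuron-like cells from them is implied. Thinned to 1000 UMIs, 6.80 to 15.5% of neuron-like cells had a Cyp46a1 UMI in control, against 0.138 to 0.410% of neuroblast-like cells. Unthinned, these shares were 42.7 to 69.9% and 0.509 to 2.72%, at library medians of 9290.0 to 16190.0 and 4251 to 8997 UMIs per cell.

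Soat1 (ENSMUSG00000026600, chr1:156424525-156474331, minus strand), which esterifies cholesterol for storage in lipid droplets, was at 273, 277 and 348 CPM in the astrocyte-like cells of control libraries 1, 2 and 3, 243, 312 and 286 CPM in cKO and 269 CPM in the DKO library. NSC-like cells had 195 ± 36.0 CPM (SD, n = 3) without overlap, and ependymal-like (74.7 CPM) and microglia-like cells (69.3 CPM) overlapped below them. OPC- and TAP-like cells had 43.7 and 39.7 CPM, mural-like cells 25.1 CPM and the remaining 4 types 13.6 to 18.0 CPM. Oligodendrocyte-like cells, rich in Abcg1, were the lowest.

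Npc2 (ENSMUSG00000021242, chr12:84754562-84773152, minus strand), which hands cholesterol to Npc1 in the lysosome, was found in all types. It was highest in microglia-like cells, at 515, 613 and 488 CPM in control libraries 1, 2 and 3, 578, 691 and 528 CPM in cKO and 533 CPM in the DKO library. Oligodendrocyte-like cells followed at 426 ± 27.0 CPM (SD, n = 3) without overlap. OPC-, NSC-, neuroblast- and astrocyte-like cells, at 242 to 280.2 CPM, overlapped from neighbour to neighbour, and OPC-like cells at resolution 0.3 had 145 CPM. TAP- and endothelial-like cells had 189.6 and 182 CPM, mural-like cells 115 CPM, ependymal-like cells 74.1 CPM and neuron-like cells 42.2 ± 1.70 CPM.

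**Figure D2:**
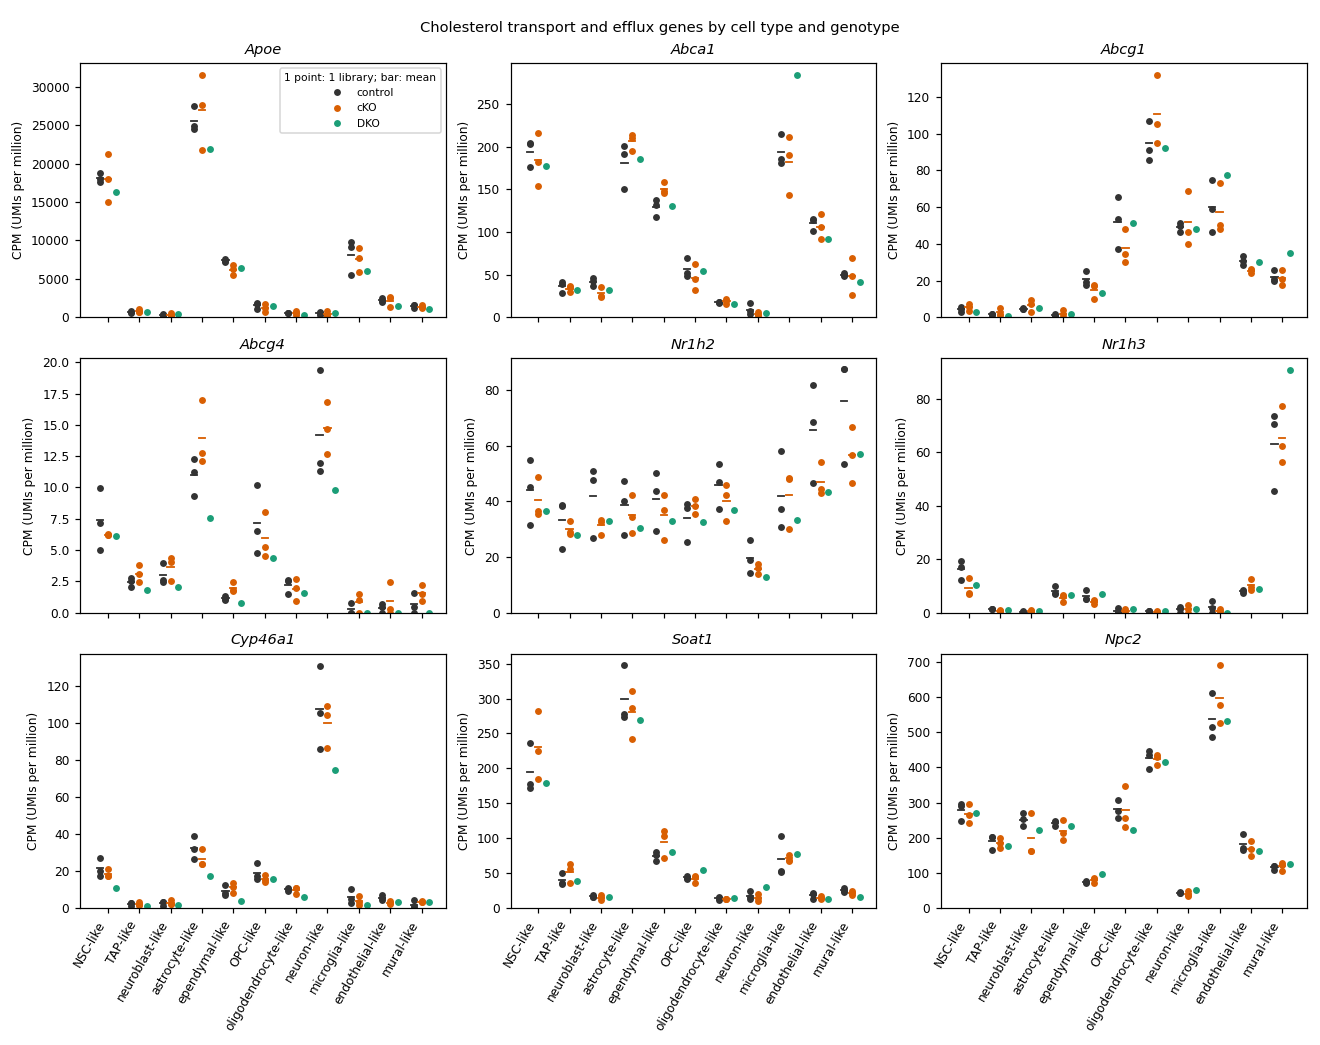
Levels of the 9 genes in CPM (1 panel per gene, linear axes from 0) in 11 cell types, with 1 point per library and a bar at the mean of 3 libraries for control and cKO; the DKO group is 1 library. Apoe, Soat1 and Abca1 are high in astrocyte- and NSC-like cells, where Abcg1 is at 1.05 and 4.35 CPM in control.

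Within the oligodendrocyte lineage the levels of the members had different orders over the stages. At resolution 0.3 the lineage separated into OPC-like (901), committed OPC-like (1524) and oligodendrocyte-like cells (4380). Apoe went from 3247 ± 646 CPM in OPC-like cells to 1323 ± 431 CPM in committed OPC-like and 349 ± 102 CPM in oligodendrocyte-like cells of control libraries (SD, n = 3 each), and Abca1 from 104 ± 19.9 to 35.6 ± 8.33 and 14.8 ± 1.15 CPM. Soat1 had the same order, with 63.7, 34.8 and 11.1 CPM. Npc2 had the opposite order, with 145 ± 15.3, 358 ± 41.6 and 434 ± 28.1 CPM. Abcg1 was at 115 ± 22.4 CPM in OPC-like cells, 37.4 ± 6.76 CPM in committed OPC-like cells and 95.6 ± 10.7 CPM in oligodendrocyte-like cells, so that the middle stage was the lowest. Scrublet marked 17.7% of the committed OPC-like cells as doublets, against 3.55% of OPC-like cells and 0.538 and 1.14% in the oligodendrocyte-like clusters. Without doublets, an alternative added after seeing the data, Abcg1 was at 118 ± 23.8, 22.0 ± 8.19 and 95.7 ± 10.6 CPM over the stages, Apoe at 3088, 766 and 348 CPM and Npc2 at 146, 366 and 434 CPM. The astrocyte markers were not set beside Apoe at these stages. In the oligodendrocyte-like cells of the main clustering Apoe exceeded their median by 1.51 to 2.14 times, and how much of the last Apoe level is free RNA was not tested. These stages were seen after clustering and no test was made between them.

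**Figure D3:**
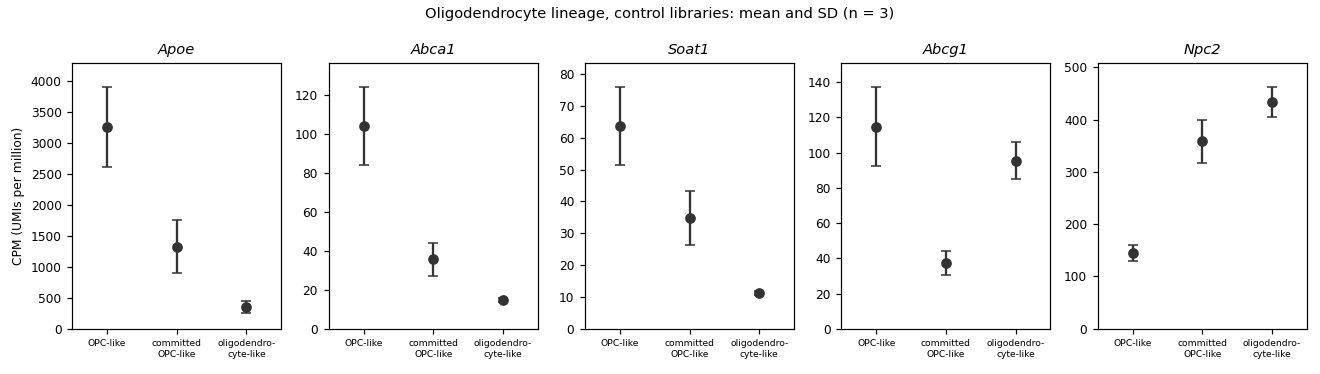
Mean level in CPM with SD over 3 control libraries for 5 genes in OPC-like, committed OPC-like and oligodendrocyte-like cells (linear axes from 0). Apoe, Abca1 and Soat1 step down (104, 35.6 and 14.8 CPM for Abca1), Npc2 steps up, and Abcg1 is lowest in the middle stage at 37.4 CPM.

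The genes whose control means over the 11 types were most like each member, by Pearson's r of log2(CPM + 1) among 14037 genes, are a description, since these means share libraries and 11 points allow high values among so many genes. They were Naprt (0.97), Eva1a (0.96), Sdc4 (0.96) for Apoe, Tor3a (0.94), Tmem243 (0.92), 3222401L13Rik (0.91) for Abca1, Man1a (0.95), Ccdc47 (0.89), Ldlrad4 (0.89) for Abcg1 and Nudt19 (0.95), Tnik (0.95), Asphd2 (0.95) for Abcg4. For the LXR genes they were Ctnnd1 (0.95), Zfp568 (0.93), Rbms2 (0.92) for Nr1h2 and Lhfp (0.97), Sh3d21 (0.96), Cox4i2 (0.96) for Nr1h3. For the remaining members they were Adgrb2 (0.94), Alcam (0.94), Lrtm2 (0.93) for Cyp46a1, Acss1 (0.99), Slc1a3 (0.96), Clcc1 (0.95) for Soat1 and Snx8 (0.94), Snx6 (0.89), Mob3a (0.88) for Npc2. Slc1a3, the second nearest to Soat1, is a glutamate transporter of astrocytes and stem cells, and Acss1, the nearest, encodes a mitochondrial acetyl-CoA synthetase.

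Whether these genes differed between cKO and control was asked with edgeR's quasi-likelihood test on UMI sums per library, 3 cKO against 3 control, adjusted by Benjamini-Hochberg over all genes of a cell type. This was done in every compared type, also in those not derived from radial glia. Of 99 pairs of member and cell type, 88 passed the filter on low counts and 0 were called at an adjusted p under 0.05, where the same test called 209 of 141052 pairs of any gene and type (0.148%). At an unadjusted p under 0.05 there were 3 of 88 (3.41%), all lower in cKO, against 6.16% of all pairs (13.8% in NSC-like, 8.87% in neuroblast-like and 2.26% in neuron-like cells, the types of these 3), all by edgeR. DESeq2 called 0, against 0.745% of all pairs, with 1 at an unadjusted p under 0.05, for which the edgeR shares are no background. The log2 fold changes ran from -1.22 to 0.90, 43 above and 45 below 0. The groups did not overlap in 10 pairs (11.4%), 2 higher and 8 lower in cKO, against 11.1% of all pairs. The count at an unadjusted p under 0.05 rests on single libraries: it was 0 without cKO library 2 (4.07% of all pairs), 8 without control library 3 (9.09% against 7.72%) and 11 without cKO library 1 (12.5% against 9.53%), and 2 or 3 with any other library left out. With at most 5% mitochondrial counts it was 6 of 83 (7.23% against 5.77%) and with the replicate block 6 of 88 (6.82% against 9.66%). A lack of calls at 3 against 3 libraries does not show that the levels were equal.

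By cell type, 4 of the 10 pairs without overlap lay in ependymal-like cells, 3 in endothelial-like cells and 1 each in TAP-, astrocyte- and neuroblast-like cells. In ependymal-like cells, of 8 members tested, Apoe (-0.20), Abcg1 (-0.30) and Nr1h3 (-0.43) were without overlap lower and Abca1 (0.27) higher, as log2 fold changes, where 12.8% of genes did not overlap, 8.58% had an unadjusted p under 0.05 and 0.223% were called. Apoe there stood at 7185, 7375 and 7609 CPM in control libraries 1, 2 and 3, 6805, 5451 and 6259 CPM in cKO and 6434 CPM in the DKO library, with an edgeR adjusted p of 0.867. Other markers moved there without overlap too: those of oligodendrocytes, the type highest in Abcg1 by these clusters but not by the marker gate, summed to 428 to 698 CPM in control, 179 to 327 CPM in cKO and 508 CPM in the DKO library, those of mural cells to 399 to 609 CPM in control, 738 to 915 CPM in cKO and 639.6 CPM in the DKO library and those of fibroblasts to 37.0 to 41.5 CPM in control, 15.1 to 30.7 CPM in cKO and 27.2 CPM in the DKO library, and their part was not tested. In endothelial-like cells, where Cre is not expected from its promoter and was not measured, Cyp46a1 (-0.78) and Abcg1 (-0.17) were lower and Nr1h3 (0.42) higher, where 8.29% of genes did not overlap, 2.11% had an unadjusted p under 0.05 and 0 were called. Nr1h3 was lower in TAP-like (-0.97; background 10.7, 6.42 and 0%) and astrocyte-like cells (-0.47; 13.9, 10.3 and 1.19%), and Abca1 in neuroblast-like cells (13.1, 8.87 and 0.0291%). With Nr1h3 the endothelial markers were lower in TAP-like cells, at 25.1 to 39.2 CPM in control, 14.8 to 23.0 CPM in cKO and 40.98 CPM in the DKO library, and the fibroblast markers in astrocyte-like cells, at 25.2 to 35.6 CPM in control, 5.33 to 18.1 CPM in cKO and 10.9 CPM in the DKO library, each without overlap, and their part was not tested. In the other types no member was without overlap, against a background of 17.2% of genes in NSC-like (0.175% called), 12.1% in OPC-like, 9.6% in microglia-like, 9.14% in mural-like, 7.64% in neuron-like and 6.68% in oligodendrocyte-like cells. At an unadjusted p under 0.05 the background there was 4.55% in OPC-like, 3.04% in microglia-like, 3.68% in mural-like and 1.94% in oligodendrocyte-like cells, with 0.0089% called in mural-like and 0.0232% in neuron-like cells.

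In the type where each was highest, the 95% intervals bound the change. The log2 fold change of cKO against control was 0.085 (95% interval -0.35 to 0.52, edgeR adjusted p = 0.937) for Apoe in astrocyte-like cells and -0.10 (95% interval -0.51 to 0.30, edgeR adjusted p = 0.907) for Soat1 there. It was 0.24 (95% interval -0.15 to 0.64, edgeR adjusted p = 0.9999) for Npc2 in microglia-like cells, and 0.0074 (95% interval -0.36 to 0.38, edgeR adjusted p = 0.991) for Abca1 in NSC-like cells. For Abcg1 in oligodendrocyte-like cells it was 0.29 (95% interval -0.069 to 0.64, edgeR adjusted p = 0.9997). In neuron-like cells it was 0.17 (95% interval -0.45 to 0.79, edgeR adjusted p = 0.9995) for Abcg4 and -0.040 (95% interval -0.51 to 0.43, edgeR adjusted p = 0.9995) for Cyp46a1. In mural-like cells it was -0.34 (95% interval -0.77 to 0.10, edgeR adjusted p = 1) for Nr1h2 and 0.14 (95% interval -0.27 to 0.56, edgeR adjusted p = 1) for Nr1h3. Each of these 9 intervals covers 0 and excludes a change of 1 on the log2 scale in either direction.

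The 3 pairs at an unadjusted p under 0.05 were Nr1h3 in NSC-like cells and Abca1, a known target of LXRs, in neuroblast-like and neuron-like cells. Nr1h3 in NSC-like cells stood at 19.4, 17.0 and 12.2 CPM in control libraries 1, 2 and 3, 13.01, 6.95 and 7.22 CPM in cKO libraries 1, 2 and 3 and 10.3 CPM in the DKO library. Control library 3 and cKO library 1 overlapped, and the other cKO libraries lay below all controls. The log2 fold change was -0.71 (standard error 0.27, 95% interval -1.29 to -0.13), with an unadjusted p of 0.0213 and an adjusted p of 0.264 from edgeR, and without cKO library 1 it was -1.04, the only setting tried that passed the threshold (edgeR adjusted p = 0.0156; 0.0156 to 0.924 over the 16 alternatives), and in that setting 11.7% of all genes were called in NSC-like cells. The difference in mean log2(CPM + 1) was -0.86 between the libraries of Cell Ranger version 6.0.1 and -0.69 between those of version 6.1.1, with 2 against 2 and 1 against 1 library. The markers of mural cells, the type highest in Nr1h3, summed to 119.6 to 147 CPM in control, 86.1 to 111 CPM in cKO and 101 CPM in the DKO library within NSC-like cells, so that they moved with Nr1h3 without overlap. So did the TAP markers, 279 to 373 CPM in control, 171 to 276 CPM in cKO and 310.1 CPM in the DKO library, and the fibroblast markers, 26.4 to 35.8 CPM in control, 13.5 to 22.5 CPM in cKO and 24.7 CPM in the DKO library, while the astrocyte markers summed to 2690.4 to 2987 CPM in control, 2883 to 4057 CPM in cKO and 2987 CPM in the DKO library; their part in the result was not tested.

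Abca1 in neuroblast-like cells stood at 42.7, 36.3 and 45.5 CPM in control libraries 1, 2 and 3, 36.0, 24.3 and 24.9 CPM in cKO and 31.7 CPM in the DKO library, so that no cKO library reached a control library, the nearest being 36.0 against 36.3 CPM. The log2 fold change was -0.48 (standard error 0.19, 95% interval -0.89 to -0.063), with an unadjusted p of 0.0268 and an adjusted p of 0.517 from edgeR. It ran from -0.70 to -0.35 with each library left out in turn, and was -0.40 between the libraries of Cell Ranger version 6.0.1 and -0.84 between those of version 6.1.1. The TAP markers summed to 100.1 to 119.8 CPM in control, 29.8 to 94.0 CPM in cKO and 77.8 CPM in the DKO library in neuroblast-like cells, so that they moved with Abca1, and their part was not tested.

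In neuron-like cells Abca1 was near the limit of detection, with 16.2, 3.29 and 7.41 CPM in control libraries 1, 2 and 3, 5.995, 2.76 and 2.39 CPM in cKO and 5.22 CPM in the DKO library, from 166 UMIs in all. The groups overlapped, with control library 1 apart from the others. The log2 fold change was -1.22 (standard error 0.54, 95% interval -2.37 to -0.065), with an unadjusted p of 0.0397 and an adjusted p of 0.9995 from edgeR, and it ran from -1.61 to -0.78 with each library left out in turn. It was -0.78 without cKO library 3 and -0.79 without control library 1, and over all alternatives it ran from -2.05 (at most 5% mitochondrial counts) to -0.49 (marker gate). The astrocyte markers in neuron-like cells summed to 51.1 to 221 CPM in control, 53.3 to 187 CPM in cKO and 107 CPM in the DKO library, overlapping between groups. The neuron markers there were higher in cKO without overlap, at 9135 to 10225 CPM in control, 10545 to 11175 CPM in cKO and 9279 CPM in the DKO library, and their part was not tested.

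**Figure D4:**
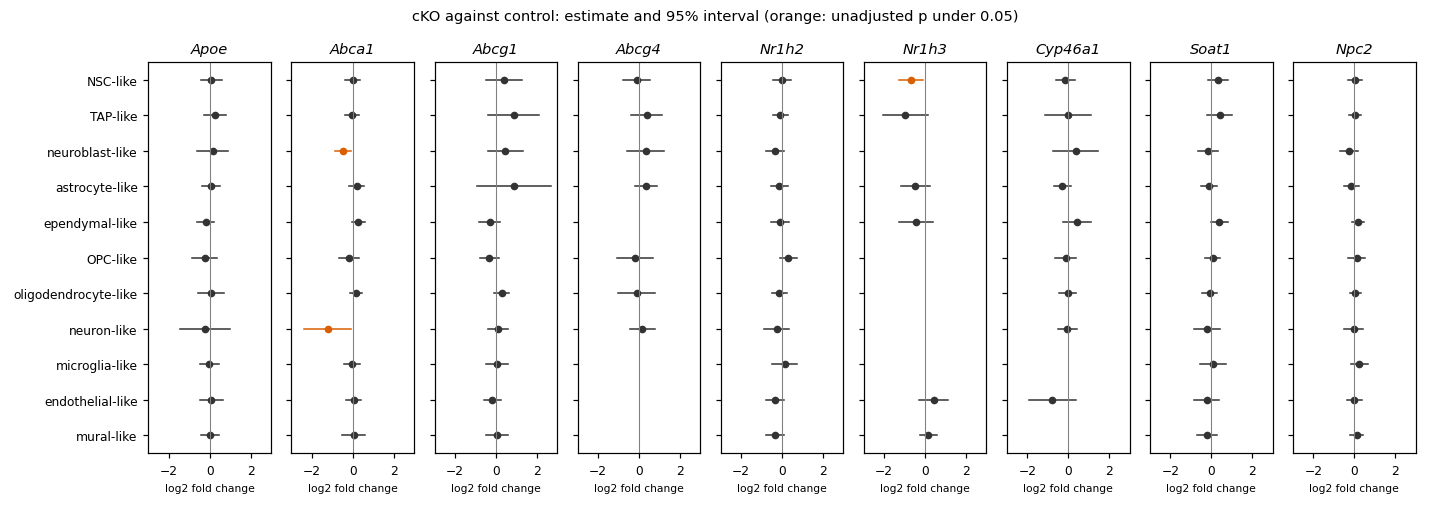
Log2 fold change of cKO against control (x axis) with its 95% interval for each member (panels) in each cell type (rows), from edgeR; missing rows did not pass the filter on low counts. The 3 orange points had an unadjusted p under 0.05 and the adjusted p of each was at least 0.264.

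The DKO library was compared with the range of the other 6 without a test, since it is 1 library. Of 88 pairs it lay above that range in 8, below in 18 and within in 62, where it lay above in 10.5% and below in 15.0% of all pairs of gene and type. Cyp46a1 was below in 6 of its 9 pairs, at 10.8 CPM in NSC-like cells against 17.0 to 27.2 CPM in the other libraries, 17.0 against 23.8 to 38.9 CPM in astrocyte-like cells and 74.7 against 86.2 to 131 CPM in neuron-like cells. Of the Cyp46a1 pairs below, those in TAP- and ependymal-like cells rest on 14 and 10 UMIs of the DKO library. Abcg4 was below in 5 of 7, each from 13 to 32 UMIs of the DKO library, in OPC-like cells with 4.37 against at least 4.54 CPM. The types are parts of the same library and not separate observations. Abca1 in microglia-like cells was above, at 284 CPM against 143 to 215 CPM, and without the macrophage-like cells it was 239 CPM against 110 to 182 CPM. Abcg1 there was above too, at 77.7 CPM against 46.6 to 74.8 CPM. Of all genes tested in microglia-like cells, 17.6% were above in the DKO library.

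The synthesis genes were set beside the members in the same fits. In astrocyte-like cells 20 of 21 had a log2 fold change below 0, with a median of -0.30, against -0.10 over the 9 members and -0.0040 over all genes tested. Of the 21, 0 were called by edgeR and 0 by DESeq2 (edgeR called 1.19% of all genes there), 8 had an unadjusted p under 0.05 (10.3% of all genes), 7 of them lower, and in 8 the groups did not overlap (13.9% of all genes). The count of 8 rests on single libraries, with 1 without cKO library 3 (6.39% of all genes), 2 without cKO library 2 (7.19%) and 13 without cKO library 1 (14.0%), and was 5 without control library 1 and with at most 5% mitochondrial counts. Without cKO library 1 edgeR called 1, Dhcr7 (adjusted p = 0.0232), where 4.43% of all genes were called. Ebp, a sterol isomerase, was the exception at 0.61 (edgeR adjusted p = 0.189), while Dhcr7, a late reductase, was at -0.52 (edgeR adjusted p = 0.31). Markers of other cells were lower without overlap in the same astrocyte-like cells, those of fibroblasts as given above and those of committed OPCs at 16.8 to 20.9 CPM in control, 8.48 to 15.7 CPM in cKO and 14.8 CPM in the DKO library, and their part was not tested. In NSC-like cells Ebp was at 1.26 (edgeR adjusted p = 0.135) without overlap, and there it was called higher by DESeq2 (adjusted p = 0.00846), by edgeR with the replicate block (adjusted p = 0.00705) and by edgeR without cKO library 1 (adjusted p = 9.57e-05), where 3.91, 3.53 and 11.7% of all genes were called. Without that library Idi1 and Acat2 were called lower there, and Cyp51, Msmo1 and Fdft1 lower in neuroblast-like cells (2.84% of all genes called), where Msmo1 was also called without the filter on low counts (edgeR adjusted p = 0.0282, with 1.23% of all genes called). The median was -0.32 in neuroblast-like cells (19 of 21 below 0, 0 called, 4 at an unadjusted p under 0.05 against 8.87% of genes, with the TAP markers lower there as given above), -0.12 in NSC-like and 0.12 in oligodendrocyte-like cells. Over the alternatives the median ran from -0.47 (without cKO library 1) to -0.16 (marker gate) in neuroblast-like cells, with -0.19 without cKO library 3, and from -0.36 (marker gate, 20 of 21 below 0) to -0.032 (at most 5% mitochondrial counts, 12 of 21) in NSC-like cells, so that the order of the types is not fixed. In astrocyte-like cells it was -0.49 without cKO library 1 and -0.29 to -0.39 otherwise. The members had medians of -0.015 in neuroblast-like, 0.0074 in NSC-like and 0.017 in oligodendrocyte-like cells, where all genes had 0.019, -0.0053 and 0.0041. No test was made of synthesis against transport.

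**Figure D5:**
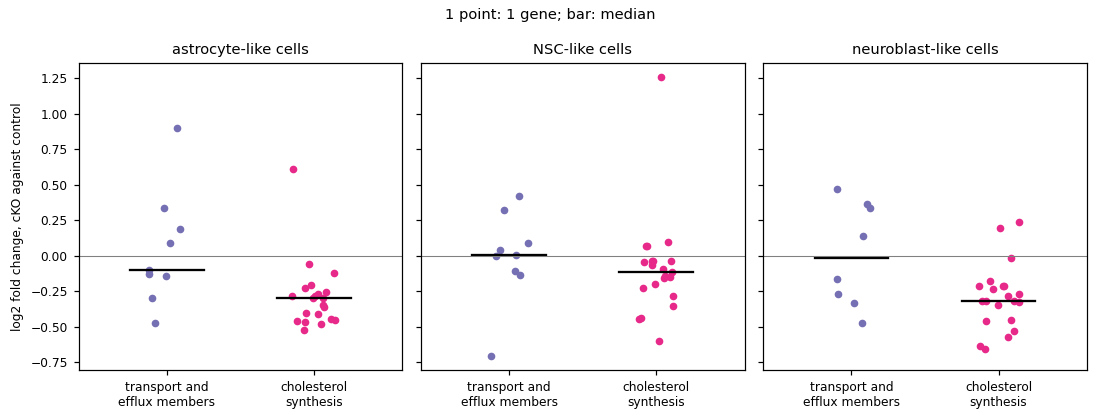
Log2 fold changes of cKO against control (y axis) for the transport and efflux members and the synthesis genes in 3 cell types, with 1 point per gene and a bar at the median. In astrocyte-like cells the medians are -0.10 and -0.30, and points are genes and not replicates.

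The other genes of the pathway were taken from 5 lists with 55 genes: sterol sensing, uptake and lysosome, further carriers and transporters, LXR partners and targets, and esters and oxysterols. edgeR called 0 of 530 pairs of gene and type, with 219 above and 311 below 0 and 49 (9.25%) at an unadjusted p under 0.05 against 6.16% of all pairs, with 77 (14.5%) without overlap against 11.1%. DESeq2 called 4 (0.755%, against 0.745% of all pairs), edgeR without the filter on low counts 14 of 603 (2.32% against 0.809%) and edgeR with the replicate block 13 (2.45% against 1.07%). Per list, the share at an unadjusted p under 0.05 was 6.49% for sterol sensing, 12.1% for uptake and lysosome, 12.5% for carriers, 5.84% for LXR partners and targets and 7.27% for esters and oxysterols. The LXR list had 47 of 137 values above 0 (34.3%, against 70508 of 141052 over all pairs), with equal totals per library 36 (26.3% against 39.7%), and counts each gene once per cell type. The pairs named here were chosen after their values were seen, among 22 that at least 1 alternative called and 15 that at least 2 called. Pltp, the phospholipid transfer protein, had a log2 fold change of 0.92 (edgeR adjusted p = 0.0963) in NSC-like cells and Sorl1, a sorting receptor that binds Apoe, of 1.58 (edgeR adjusted p = 0.0941) there. In astrocyte-like cells Clu, the apolipoprotein clusterin, was at -0.80 (edgeR adjusted p = 0.127) and Insig1, which retains the SREBP complex, at -0.90 (edgeR adjusted p = 0.143). Pltp in astrocyte-like cells, at 0.82, had the lowest edgeR adjusted p of these lists (0.0839) and was called by edgeR without the filter (adjusted p = 0.000711), with the replicate block (adjusted p = 0.00151), with the marker gate (adjusted p = 0.0449) and without cKO library 1 (adjusted p = 0.000777). Of all genes of those cells, these settings called 2.29, 4.15, 1.85 and 4.43%. Clu in mural-like cells, where libraries of equal number deviated together, was at -1.07 (edgeR adjusted p = 1), and a replicate block gave an edgeR adjusted p of 0.00411, where 0.116% of all genes were called. In these cells the endothelial markers were higher without overlap, at 5697 to 6241 CPM in control, 6468 to 7676 CPM in cKO and 5376 CPM in the DKO library, and the neuroblast markers (215 to 336, 37.0 to 147 and 200.8 CPM) and OPC markers (367 to 424, 305 to 350.3 and 343 CPM) lower, and their part was not tested. The pairs that the most alternatives called were Clu and Pltp in astrocyte-like and Pltp in NSC-like cells (4 each), then Abca5 and Smpdl3a in astrocyte-like and Lrp8 and Sorl1 in NSC-like cells (3 each). The settings that called them called 1.75 to 4.43% of all genes in astrocyte-like and 2.48 to 11.7% in NSC-like cells. The share of all genes called by as many alternatives was not counted. Among the pairs called by 2 were Insig1 in astrocyte-, NSC- and neuroblast-like cells and Apoc1, an apolipoprotein, in ependymal-like cells. The settings of the last 2 pairs called 1.05 to 1.23% of all genes in neuroblast-like and 1.8 to 2.1% in ependymal-like cells.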

How the data were processed

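Single-cell 3′ libraries of the V-SVZ were analysed as deposited: per the file headers and Methods the authors ran Cell Ranger (6.0.1 in the headers of control and cKO libraries 1 and 2, 6.1.1 in the others and in the submitters' notes; the Methods give another version) on mm10, and the deposited values are raw UMI counts per gene and barcode. Of 32285 gene identifiers 32235 (99.8%) were found in GENCODE vM21 (GRCm38), whose coordinates are given. The members and gene lists were chosen with earlier results of these data known.

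Kept cells were clustered in Seurat 5.3.0 (2000 variable genes, of which 1982 remained without listed genes, anchors, 30 components, resolution 0.15; 17 clusters). A cluster took the name whose list had the most markers among its 10 leading genes and, at equal numbers, the largest share of markers raised, given at least 3 raised markers and 50% of the list. Oligodendrocyte-, ependymal-, astrocyte- and neuron-like clusters had 0 markers among those 10 and were named by that share. Clusters with over 50% doublets stayed unnamed. That order was set after the clusters were seen. Scrublet (scanpy 1.11.5) marked 1043 doublets (2.41%), which were kept. Counts were summed per library and type (at least 10 cells) and tested with edgeR 4.0.16 (filterByExpr, TMM, robust) on all 7 libraries in 3 groups, the DKO library being assumed to vary like the rest, with Benjamini-Hochberg adjustment at 0.05. The procedure was also run on simulated astrocyte-like sums with a single fixed spread and a single fold change, given to no sparse gene. That run does not bear on smaller changes or on genes near the limit of detection. Libraries are separate pools, so p-values measure the spread between pools. CPM are shares of all UMIs of a type in a library, and precision rests on its cells (47 to 1847).

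Fold changes are named for each member in its highest type and for pairs past the threshold or an unadjusted p of 0.05; those without overlap are added after their values were seen. Equal replicate numbers share no stated origin. The deviations of equal-numbered libraries from their group means correlated above 0.1 in all 3 pairs in endothelial-like (0.19, 0.14 and 0.38), mural-like (0.27, 0.13 and 0.39) and oligodendrocyte-like cells (0.29, 0.17 and 0.45). Alternatives were DESeq2 1.42.0, equal totals, no filter, the replicate number or the Cell Ranger version as a block, at most 5% mitochondrial counts, no doublets, a marker gate, resolution 0.3 and each library left out.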

Additional observations from a re-analysis of the deposited data

Results flagged for a closer look

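The changes of Abca1 and Nr1h3 in cKO pointed in opposite directions in different cell types, without overlap of cKO and control libraries in each type named. These differences between cell types were not tested, and no overlap occurred in 11.1% of all pairs of gene and type. Abca1 and Nr1h3 were picked from the members by this trait. How many of all genes show it in both directions over the 11 types was not counted. Abca1 was higher in cKO in ependymal-like cells (log2 fold change 0.27), at 146, 158 and 148 CPM in cKO libraries 1, 2 and 3 against 132, 118 and 138 CPM in control, and lower in neuroblast-like cells (-0.48). In the neuroblast-like cells the TAP markers were also lower without overlap, 100.1 to 119.8 CPM in control, 29.8 to 94.0 CPM in cKO and 77.8 CPM in the DKO library, and their part was not tested. In the ependymal-like cells the mural markers were also higher without overlap, 399 to 609 CPM in control, 738 to 915 CPM in cKO and 639.6 CPM in the DKO library, and the oligodendrocyte markers lower, 428 to 698 CPM in control, 179 to 327 CPM in cKO and 508 CPM in the DKO library, and their part was not tested. Nr1h3 was higher in endothelial-like cells (0.42), at 9.72, 12.5 and 8.59 CPM against 7.46, 8.39 and 8.04 CPM, the nearest being 8.59 against 8.39 CPM. Nr1h3 was lower in TAP-like (-0.97), astrocyte-like (-0.47) and ependymal-like cells (-0.43). With it the endothelial markers were lower without overlap in TAP-like cells (25.1 to 39.2 CPM in control, 14.8 to 23.0 CPM in cKO, 40.98 CPM in the DKO library) and the fibroblast markers in astrocyte-like cells (25.2 to 35.6, 5.33 to 18.1 and 10.9 CPM), and their part was not tested. None of these 6 changes was called by edgeR after adjustment, and Nr1h3 in TAP-like cells rests on 101 UMIs in all libraries.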

How the results depend on the processing

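Members called were 0 under every alternative but 1, and with each library left out they ranged from 0 to 1, the call being Nr1h3 in NSC-like cells without cKO library 1, where 11.7% of all genes of those cells were called. Synthesis genes called in astrocyte-like cells likewise ranged from 0 to 1 over the left-out libraries (1 without cKO library 1, with 4.43% of all genes), and were 0 under the other alternatives. For the other transport and sterol lists the count of 0 became 4 with DESeq2, 14 without the filter on low counts, 13 with the replicate number as a block and 1 with the marker gate, and ranged from 0 to 15 over the left-out libraries, the 15 again without cKO library 1. In these settings the share of all pairs of gene and type called was 0.745, 0.809, 1.07, 0.215 and, without cKO library 1, 2.23%, against 0.148%. The cause was not tested. Libraries sharing a number share no stated origin, and the replicate block changed no call of a member.

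Of 192 values of the 12 named fold changes over 16 alternatives, 176 kept direction and side of the threshold, 15 changed sign and 1 passed the threshold. Abca1 in NSC-like cells, near 0, was -0.080 with equal totals, -0.0074 without the filter, -0.032 at 5% mitochondrial counts, -0.29 with the marker gate, and -0.10 to 0.093 over left-out libraries. Abcg4 in neuron-like cells was -0.022 at 5% mitochondrial counts and -0.037 to 0.43 over left-out libraries. Soat1 in astrocyte-like cells was 0.035 with the marker gate and -0.20 to 0.071 over left-out libraries. Over those, Apoe in astrocyte-like cells was -0.064 to 0.25, Cyp46a1 in neuron-like cells -0.15 to 0.12, Nr1h3 in mural-like cells -0.035 to 0.26 (0.45 at 5% mitochondrial counts) and Nr1h3 in NSC-like cells -1.04 to -0.57. Abcg1 in oligodendrocyte-like cells was 0.11 to 0.41 (lowest without cKO library 2), Npc2 in microglia-like cells 0.13 to 0.34 (lowest without cKO library 2) and Nr1h2 in mural-like cells -0.53 to -0.21 (-0.099 at 5% mitochondrial counts). Equal totals moved the median of all genes by -0.10 in NSC-like, -0.11 in OPC-like and -0.10 in microglia-like cells. The synthesis genes of astrocyte-like cells had 18 to 20 of 21 below 0 under every alternative. With the marker gate the control levels were 21277 CPM for Apoe and 242 CPM for Soat1 in astrocyte-like cells, 175 CPM for Abca1 in NSC-like (below 186 CPM in astrocyte-like cells) and 85.8 CPM for Nr1h3 in mural-like cells, with Abcg1 highest in OPC-like cells at 119 CPM. Pairs with few UMIs, named with their number, carry the largest counting error.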

Other observations

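Some cells outside the compared types also carried the members. Fibroblast-like cells separated at resolution 0.3 (217 cells) had 7493 ± 3936 CPM of Apoe, 241 ± 149.5 CPM of Abca1 and 20.7 ± 10.1 CPM of Nr1h3 (SD, n = 3 control libraries). An unnamed cluster of 458 cells with Neurod1, Nhlh1, Neurod6, Lhx6 and Sst among its leading genes had 31.2 ± 12.1 CPM of Cyp46a1 and 19.9 ± 12.9 CPM of Abcg4 (SD, n = 3 control libraries), against 2.35 and 3.00 CPM in the neuroblast-like cells. These levels rest on 71 and 55 UMIs over all libraries, and Abcg4 ran from 2.96 to 34.7 CPM between libraries. The unnamed cluster of 3051 cells with a median of 1188 UMIs had 14624 CPM of Apoe and 151 CPM of Soat1, and its cells entered no comparison.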
